A study of Saccharomyces cerevisiae with 9 samples.

Results

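Rvb1 and Rvb2 are partner proteins of budding yeast, and the comparison described here sets the chromatin immunoprecipitation (ChIP) of Rvb1 against that of Rvb2. It uses 4 pulldown libraries of the 9 in the series, 2 of Rvb1 and 2 of Rvb2, chosen by their labels over every window of both deposited tables. The 2 Rvb input libraries served as background, and the 3 Pgk1 libraries were not used. All groups were W303 yeast in which the named protein carried a tandem affinity purification (TAP) tag. The Rvb1 pulldowns came from Rvb1-tagged cells and the Rvb2 pulldowns from Rvb2-tagged cells, each with 1 input from its own strain. All were grown at 30 °C to log phase and then kept for 10 min in synthetic medium without glucose, so an unstarved state is not part of the comparison. Tagged protein was recovered from sonicated lysate with rabbit IgG. Whether the 2 pulldowns of a protein were made from different cultures is not stated in the labels. The p-values below therefore describe variation among these libraries, which may be technical. For promoters and for gene bodies, the edgeR tests pooled this variation fully across windows of like read level. Their p-values, standard errors (SE) and 95% intervals thus do not rest on the spread of a window's own libraries.

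Rvb1 and Rvb2 are AAA+ ATPases that assemble with each other into alternating rings. The ring is a core part of the chromatin remodellers INO80 and SWR1, of which SWR1 places the histone variant H2A.Z at promoters. It also works with the R2TP cochaperone in building snoRNPs and other large assemblies. As both proteins sit in the same rings, the comparison asks where their chromatin profiles are alike and where they differ.

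Reads were counted in 1 promoter window and 1 gene body window of 500 bp for each of 7036 features. Promoter totals were 1993420 and 1278825 reads in the Rvb1 pulldowns and 1217928 and 1625081 in the Rvb2 pulldowns, with 4342277 reads in the Rvb1 input and 4407851 in the Rvb2 input. Gene body totals were 1568654 and 1154921 reads in Rvb1, against 1037258 and 1533417 in Rvb2. The median promoter window held 264 and 167 reads in Rvb1 and 157 and 214 in Rvb2. No window of these libraries held more than 1151 reads, and the 29 promoter windows close to that limit give a level that follows depth. The inputs lay nearer to it throughout. Their median promoter window held 53.6% (Rvb1) and 54.4% (Rvb2) of the library's largest promoter count, against 13.7% to 23.0% in the pulldowns. How far the limit alters levels over input in other windows was not tested.

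Correlations between libraries of different proteins spanned those between libraries of 1 protein. Levels are given as log2 of library-size-normalised counts (CPM) in a pulldown over CPM in its own input, for the 7023 promoters with at least 100 reads in both inputs. Across them the mean profiles of Rvb1 and Rvb2 had a Pearson correlation of 0.91, and 252 of the 351 highest promoters of each, the top 5%, were shared. Between the 2 Rvb1 libraries the correlation was 0.83, and between the 2 Rvb2 libraries it was 0.80. Across proteins it was 0.91 between the first library of each and 0.83 between the second of each. It was 0.68 between Rvb1 replicate 1 and Rvb2 replicate 2, and 0.88 between Rvb1 replicate 2 and Rvb2 replicate 1. Over all pairs of libraries, 145 to 280 of the 351 highest promoters were shared, against 96 to 205 of the 351 lowest. These are descriptions over windows, which are not independent, and libraries of 1 protein share an input. The SD over promoters of the difference in log2 CPM was 0.18 between the Rvb1 and Rvb2 means, 0.35 between the 2 Rvb1 libraries and 0.30 between the 2 Rvb2 libraries, where a mean of 2 libraries varies less than a single one.

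**Figure D1:**
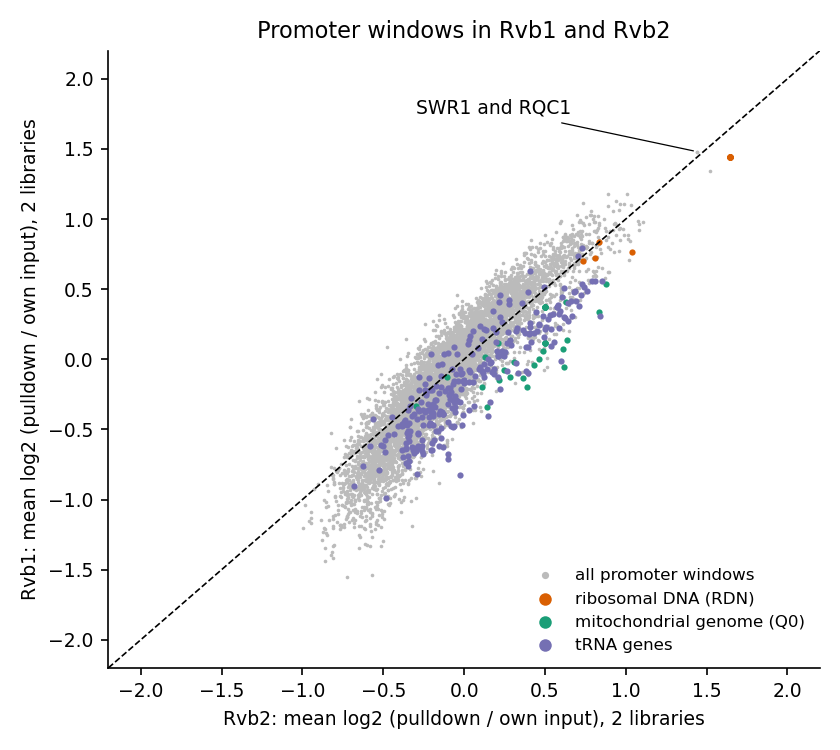
Each point is 1 promoter window, with the mean of 2 libraries of log2 pulldown over own input for Rvb1 on the vertical axis and for Rvb2 on the horizontal axis; the dashed line marks equal values. Windows lie along the line with a Pearson correlation of 0.91, while tRNA genes and the mitochondrial genome lie mostly below it.

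Of the 7023 promoters, 1729 lay above input in all 4 pulldowns and 3272 below input in all 4. Only 3.18% were split by protein, with both libraries of one above input and both of the other below, and 3.89% were split by replicate number. A level over 1.5-fold of input in all 4 pulldowns was reached by 94 promoters, which were 41.8% of the 225 that passed in both Rvb1 libraries and 68.6% of the 137 that passed in both Rvb2 libraries. Of the 94, 37 lay in the ribosomal DNA repeat region and 28 were at the count limit. Among the 6730 promoters with an input near the median, 41 passed in all 4, which were 23.8% of the 172 for Rvb1 and 69.5% of the 59 for Rvb2. The 8 promoters with the highest lowest value over the 4 pulldowns were all ribosomal DNA windows at the count limit. On the low side a smaller share was common to the proteins. A level more than 1.5-fold below input in all 4 pulldowns was reached by 10 promoters. They were 3.09% of the 324 that lay so low in both Rvb1 libraries and 35.7% of the 28 in both Rvb2 libraries. Single libraries held 1493 and 346 such promoters in Rvb1 and 1070 and 31 in Rvb2.

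The highest window outside repeats was the one that SWR1, the catalytic ATPase of the SWR1 remodeller, shares with RQC1, a subunit of the ribosome quality control complex. This window and the others in the next sentences were picked after their values were seen. It held 854 and 480 reads in Rvb1 and 607 and 408 in Rvb2, against 622 and 571 in the inputs of Rvb1 and Rvb2. Its log2 level over input was 1.58 and 1.38 in Rvb1 and 1.94 and 0.95 in Rvb2, so the lowest and the highest library were both Rvb2. The difference of Rvb1 minus Rvb2 was 0.10 (log2, SE 0.38), with a 95% interval of -0.65 to 0.85. DIG1, which encodes an inhibitor of mating transcription, stood at 1.15 and 0.70 in Rvb1 and 1.12 and 0.73 in Rvb2. AGP1, an amino acid permease gene, stood at 1.28 and 0.94 in Rvb1 and 1.28 and 0.70 in Rvb2. Both genes were above input in every library, and their groups overlapped. At the low end, PRP31, a splicing factor gene, stood at -0.98 and -0.63 in Rvb1 and -0.85 and -0.62 in Rvb2.

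The groups overlapped at 3 glycogen genes read by name. GSY1, a glycogen synthase gene, had 323 and 251 CPM in Rvb1 and 301 and 232 CPM in Rvb2. GLC3, which encodes the glycogen branching enzyme, had 282 and 263 CPM in Rvb1 and 293 and 248 CPM in Rvb2. GPH1, which encodes glycogen phosphorylase, had 275 and 284 CPM in Rvb1 and 305 and 208 CPM in Rvb2. The 3 promoters lay above their inputs of 151 to 163 CPM in every pulldown. The differences were 0.11 (SE 0.33) for GSY1, 0.01 (SE 0.33) for GLC3 and 0.13 (SE 0.32) for GPH1, and each 95% interval reached past 1.5-fold.

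The same held for most genes of glucose use and stress that were read. HXK1, a hexokinase gene, had 207 and 182 CPM in Rvb1 and 201 and 168 CPM in Rvb2, a difference of 0.08 (SE 0.24). The heat shock genes differed by 0.02 (SE 0.25) for HSP30, -0.08 (SE 0.26) for HSP12 and 0.09 (SE 0.24) for HSP104, a disaggregase gene, each with overlapping groups. HSP26, a small heat shock protein gene, had 135 and 142 CPM in Rvb1 and 127 and 123 CPM in Rvb2. Its groups did not overlap, and its difference was 0.14 (SE 0.14). It was also below its input of 150 CPM in all 4 pulldowns, unlike the other genes of this paragraph.

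By gene group, glycolysis and fermentation promoters lay above input in all 4 pulldowns for 20 of 21 genes, against 23.9% of the 6730 windows with an input near the median. Histone genes did so for 9 of 11, storage carbohydrate genes for 16 of 22 and general stress genes for 15 of 22. The median level of glycolysis promoters was 0.56 and 0.29 in Rvb1 and 0.55 and 0.30 in Rvb2. Below input in all 4 were 19 of 22 meiosis genes, 26 of 35 ribosome biogenesis genes and 12 of 15 genes of R2TP and its TTT partner, against 47.8% of those windows. The median level of meiosis promoters was -0.79 and -0.42 in Rvb1 and -0.58 and -0.22 in Rvb2. In each of these groups replicate 1 of a protein lay farther from 0 than its replicate 2.

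The libraries differed in how far they spread around input, and that difference was as large within a protein as between proteins. The 5th to 95th percentile range of log2 level over input at promoters was 1.95 and 1.14 in Rvb1 and 1.55 and 0.900 in Rvb2. Replicate 1 of Rvb1 had the widest range and replicate 2 of Rvb2 the narrowest. Promoters over 1.5-fold of input made up 10.9% and 4.26% in Rvb1 and 7.46% and 3.42% in Rvb2. Gene bodies gave the same order, with ranges of 1.93 and 1.12 in Rvb1, against 1.48 and 0.837 in Rvb2.

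**Figure D2:**
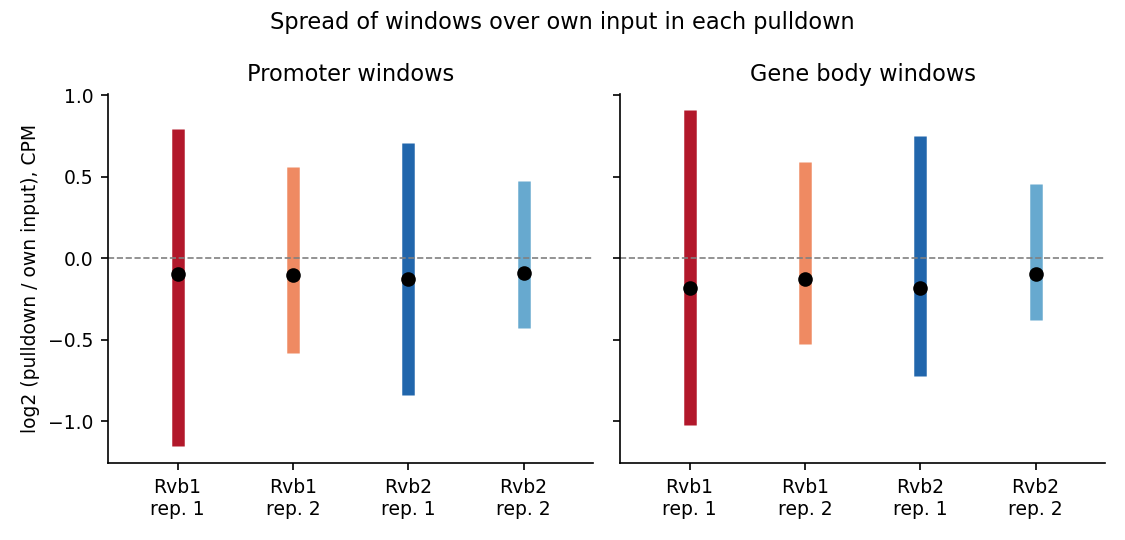
For each pulldown, the bar runs over the 5th to 95th percentile of log2 pulldown over own input across 7023 windows and the black point is the median; promoters are on the left and gene bodies on the right. Rvb1 replicate 1 spreads most and Rvb2 replicate 2 least in both kinds of window.

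The median difference between the proteins varied with the level of the windows. That level is the mean of the same 4 pulldowns, so the pattern is not independent of how far each protein's mean spreads. At promoters the SD of that mean was 0.45 for Rvb1 and 0.36 for Rvb2. When promoters were ranked by their mean level over the 4 pulldowns and split into 10 bins of equal size, the median difference of Rvb1 minus Rvb2 was -0.25 in the lowest bin, 0.00 in bin 5 and 0.09 in the highest. In the lowest bin the medians over input were -1.15 and -0.55 in Rvb1 and -0.82 and -0.38 in Rvb2. In the highest bin they were 0.79 and 0.53 in Rvb1 and 0.71 and 0.40 in Rvb2. Gene bodies gave -0.22 in the lowest bin and 0.13 in the highest. The part that library spread has in the differences given below was not tested gene by gene. A fit with each pulldown's spread as a covariate, chosen after seeing the data, called 0 promoters. The fit without it also called 0, so this count cannot show what part the spread has.

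**Figure D3:**
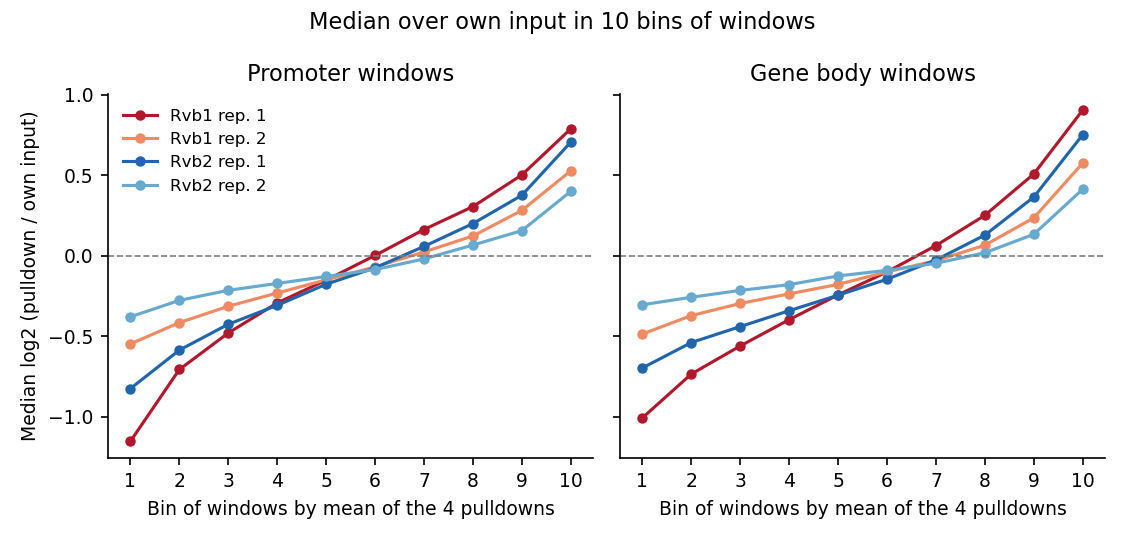
The vertical axis gives the median log2 pulldown over own input in each of 10 equal bins of windows, ranked on the horizontal axis by the mean of the 4 pulldowns; each line is 1 library. At promoters the lines run between -1.15 and 0.79 in Rvb1 replicate 1 and between -0.38 and 0.40 in Rvb2 replicate 2, with the other libraries between them at the lowest and highest bins.

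No promoter passed the test of Rvb1 against Rvb2 in the fit that does not pair libraries. In edgeR's quasi-likelihood test 0 of 7028 promoters passed a Benjamini-Hochberg adjusted p of 0.05, and the smallest adjusted p was 0.107. At an unadjusted p under 0.05 there were 51 higher in Rvb1 (0.726%) and 79 lower (1.12%), 1.85% together and fewer than the 351 that uniform p-values would give, and DESeq2 gave 0 calls with 35 at an unadjusted p under 0.05. Both Rvb1 libraries lay above both Rvb2 libraries at 836 promoters (11.9%) and below them at 810 (11.5%), 23.4% together. The median difference was 0.00 and the 5th to 95th percentiles were -0.35 to 0.24. A missed threshold does not show likeness, so the intervals were read as well: for 4393 promoters, 62.5%, the 95% interval of the difference lay within 1.5-fold in either direction. Without Rvb1 replicate 2 the test called 11 promoters, all lower in Rvb1, and the share with such an interval was 36.6%. Leaving out any of the other libraries gave 0 calls and shares of 32.3% to 41.7%.

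The promoters named next had the smallest p in each direction among those whose groups did not overlap. That choice fixes their direction in every library, and none passed the adjusted test of the unpaired fit (edgeR adjusted p 0.997 for each). WHI4, which encodes an RNA-binding protein of cell size control, had 200 and 152 CPM in Rvb1 and 139 and 106 CPM in Rvb2. Its difference was 0.55 (SE 0.16), the highest of all promoters, and it was 0.32 without Rvb1 replicate 1, 0.35 without Rvb2 replicate 2, 0.72 without Rvb1 replicate 2 and 0.73 without Rvb2 replicate 1. AHC2, a gene of the ADA histone acetyltransferase complex, had 144 and 145 CPM in Rvb1 and 97.2 and 116 CPM in Rvb2. VHS3, which encodes an inhibitory subunit of the phosphatase Ppz1, had 127 and 142 CPM in Rvb1 and 91.4 and 103 CPM in Rvb2. Their differences were 0.42 (SE 0.14) for AHC2 and 0.46 (SE 0.16) for VHS3. The other 5 were SSH1, a translocon gene, MRPS9, a mitochondrial ribosomal protein gene, SYC1, RGC1 and YPL150W, with differences of 0.36 to 0.46. With 1 library left out, the differences of the 8 ran between 0.19 and 0.73. The 8 lay between 0.54 and -0.62 in log2 level over input. Their SEs were 0.14 to 0.18, against a median of 0.19 over all promoters, and ranking by p favours windows with a small SE.

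Of the 8 lower promoters, 2 were those of tRNA genes. The valine tRNA gene tV(AAC)O had 63.2 and 91.5 CPM in Rvb1 and 119 and 134 CPM in Rvb2, a difference of -0.73 (SE 0.25). The glutamate tRNA gene tE(UUC)E3 had 104 and 129 CPM in Rvb1 and 151 and 154 CPM in Rvb2, a difference of -0.41 (SE 0.14). ECM1, which encodes a factor of large ribosomal subunit export, had 108 and 123 CPM in Rvb1 and 151 CPM in both Rvb2 libraries. TIR2, a cell wall mannoprotein gene, had 94.3 and 119 CPM in Rvb1 and 136 and 141 CPM in Rvb2. Both of the last 2 differed by -0.40, with an SE of 0.14 for ECM1 and 0.15 for TIR2. In these 4 promoters replicate 1 of Rvb1 was the lowest library. The remaining 4 were YBL107W-A, YNL035C, YML099W-A and YAR069C, with differences of -0.64 to -0.40. With 1 library left out, the differences of these 8 promoters ran between -1.01, at tV(AAC)O without Rvb1 replicate 2, and -0.21, at YNL035C without Rvb2 replicate 2.

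**Figure D4:**
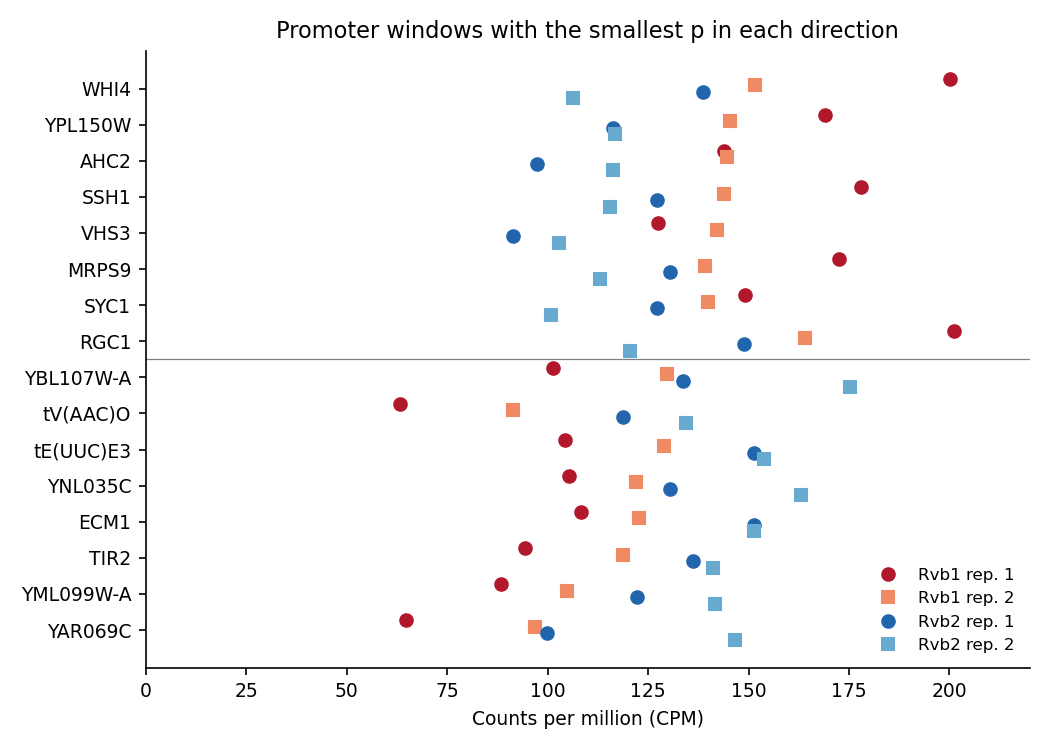
Normalised CPM on the horizontal axis in each of the 4 pulldowns for the 8 promoters higher in Rvb1 (above the grey line) and the 8 lower in Rvb1 (below it); circles are replicate 1 and squares replicate 2. The groups do not overlap in any row, which the choice of rows fixes, and WHI4 has 200 and 152 CPM in Rvb1 against 139 and 106 CPM in Rvb2.

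No gene body passed either. In edgeR's quasi-likelihood test 0 of 7030 gene bodies passed, and the smallest adjusted p was 0.305. At an unadjusted p under 0.05 there were 56 higher (0.797%) and 70 lower (0.996%), 1.79% together, and DESeq2 gave 0 calls with 35 at that level. The groups did not overlap at 841 gene bodies with Rvb1 higher (12%) and 873 with Rvb1 lower (12.4%), 24.4% together. The 95% interval lay within 1.5-fold for 4053, or 57.7%. Without Rvb1 replicate 2 there were 12 calls, 1 higher and 11 lower, and the share was 36.8%. It was 22.9% without Rvb2 replicate 1 and 22.4% without Rvb2 replicate 2, with 0 calls in both.

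YPL276W had the smallest p, with 77.1 and 109 CPM in Rvb1 and 111 and 174 CPM in Rvb2. Its difference was -0.67 (SE 0.16, edgeR adjusted p 0.305), and replicate 2 of Rvb1 and replicate 1 of Rvb2 were close. PAU6, of the subtelomeric seripauperin family, had 77.1 and 121 CPM in Rvb1 and 127 and 149 CPM in Rvb2, a difference of -0.52 (SE 0.16). ATG5, which encodes a conjugation factor of autophagy, had 171 and 127 CPM in Rvb1 and 110 CPM in both Rvb2 libraries, a difference of 0.46 (SE 0.15). LIP5, a lipoic acid synthase gene, had 165 and 138 CPM in Rvb1 and 120 and 108 CPM in Rvb2, a difference of 0.43 (SE 0.15). Without Rvb1 replicate 2, the differences of YPL276W, PAU6 and ATG5 were -0.93, -0.85 and 0.64. Without Rvb1 replicate 1 they were -0.43, -0.22 and 0.20. YPL276W differed by -0.26 without Rvb2 replicate 2. Of the genes whose groups did not overlap in both windows, 182 were higher in both, 156 lower in both, 66 higher at the promoter and lower in the gene body, and 58 the reverse. Across 7027 genes the promoter and gene body differences had a Pearson correlation of 0.42, and both come from the same libraries.

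The share of reads in promoters overlapped between the proteins. Promoters took 56.0% and 52.5% of reads in Rvb1 and 54.0% and 51.5% in Rvb2, against 49.7% in the Rvb1 input and 49.5% in the Rvb2 input. The means were 54.3% ± 2.42 for Rvb1 and 52.7% ± 1.81 for Rvb2 (SD, n = 2 each), with p = 0.667 in an exact two-sided permutation test whose smallest possible p is 0.3333. The difference was 1.53 percentage points, and it was -0.183 without Rvb1 replicate 1.

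By gene, the change of the promoter to gene body ratio between proteins was called at 0 of 7027 genes (edgeR quasi-likelihood interaction). At an unadjusted p under 0.05 there were 72 higher (1.02%) and 19 lower (0.270%), 1.3% together, and DESeq2 gave 0 calls with 7 at that level. Simulated counts showed the intervals of this fit to be wider than nominal and its test conservative. On the measured counts all 3 fits gave fewer windows at an unadjusted p under 0.05 than the 351 of uniform p-values. With CPM scaled within each table, which removes the difference in promoter share, the ratios of Rvb1 lay above those of Rvb2 at 987 genes (14%) and below at 965 (13.7%), 27.8% together. Without Rvb1 replicate 2 there were 41 calls, 33 higher and 8 lower. The interaction itself, fitted with 1 library size for both windows, keeps that difference: its median over all genes was 0.11, and -0.0033 without Rvb1 replicate 1, 0.02 without Rvb2 replicate 2, 0.19 without Rvb2 replicate 1 and 0.22 without Rvb1 replicate 2.

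The ratios given next are on the scale within each table, so they differ by about that median from the interaction. MSC1 had the smallest p, with log2 promoter over gene body ratios of 0.47 and 0.51 in Rvb1, against 0.10 and 0.07 in Rvb2. Its interaction was 0.53 (SE 0.13). TSL1, which encodes a subunit of trehalose synthase, had ratios of -0.05 and -0.11 in Rvb1, against -0.47 and -0.40 in Rvb2, an interaction of 0.48 (SE 0.14). YOL160W had the lowest, with ratios of -1.52 and -0.74 in Rvb1, against -0.22 and -0.08 in Rvb2, an interaction of -0.86 (SE 0.23). In MSC1 and TSL1 the libraries of a protein lay close together, whereas the 2 Rvb1 libraries of YOL160W lay farther apart than the nearest libraries of the 2 proteins. A choice by small p favours libraries that lie close together, so this closeness is not independent of the choice. Without Rvb1 replicate 2 the YOL160W interaction was -1.14, and without Rvb1 replicate 1 it was -0.59.

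No gene of the rings' own complexes passed the test of the unpaired fit. Counts of members above and below in this and the next paragraphs on gene groups stand against 11.9% above and 11.5% below over all promoters. Of 14 SWR1 complex promoters, 2 lay above in both Rvb1 libraries (14.3%) and 0 below, with a median difference of 0.08. Of 15 INO80 complex promoters, 4 lay above (26.7%) and 1 below (6.67%), with a median of 0.06. INO80 itself had 190 and 162 CPM in Rvb1 and 192 and 145 CPM in Rvb2, a difference of 0.07 (SE 0.20). The SWR1 gene body had 400 and 283 CPM in Rvb1 and 359 and 188 CPM in Rvb2, a difference of 0.33 (SE 0.42) with overlapping groups. R2TP and TTT genes gave 1 above and 2 below of 15. The promoter of RVB2 lay above and belongs to the SWR1, INO80 and R2TP lists alike, so it is counted in each. Among 13 snoRNP genes 1 lay above and 0 below, and only 4 had a difference over 0, with a median of -0.05. The 1 above was BCD1, a box C/D assembly factor gene with 162 and 138 CPM in Rvb1 and 129 and 116 CPM in Rvb2 and a difference of 0.31 (SE 0.14). GAR1, another member, differed by -0.29 (SE 0.21) with overlapping groups. The snoRNP gene bodies gave 1 above (7.69%) and 3 below (23.1%), against 12% and 12.4% of all gene bodies. No member of any list passed the adjusted test of the unpaired fit.

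The tagged genes were read because a tag can change their locus. The RVB1 promoter had 118 and 132 CPM in Rvb1 and 118 and 120 CPM in Rvb2, a difference of 0.06 (SE 0.15), and its gene body differed by -0.03 (SE 0.15). The RVB2 promoter had 152 and 150 CPM in Rvb1 and 137 and 119 CPM in Rvb2, a difference of 0.25 (SE 0.14). At the RVB2 gene body the counts were 130 and 127 CPM in Rvb1 and 117 and 112 CPM in Rvb2, a difference of 0.17 (SE 0.16). The groups did not overlap in either RVB2 window, and overlapped in both RVB1 windows. Over all windows they did not overlap at 23.4% of promoters and 24.4% of gene bodies. Both windows of a gene come from the same libraries, and an effect of the tag was not tested. Promoter CPM in the 2 inputs was 143 for the Rvb1 strain and 141 for the Rvb2 strain at RVB2, and 147 and 138 at RVB1. Among the 8 marker genes read to check the strains against each other, 1 promoter lay above and 1 below, and both inputs held reads at all of them.

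Respiration genes lay above in both Rvb1 libraries at 8 of 38 promoters (21.1%, against 11.9% of all promoters) and below at 2 (5.26%, against 11.5%), with a median difference of 0.09. That median ran from 0.0051, without Rvb1 replicate 1, to 0.18, without Rvb2 replicate 1. Chaperone genes gave 4 above (15.4%) and 2 below of 26, and storage carbohydrate genes 3 above (13.6%) and 0 below of 22, with GDB1, the glycogen debranching enzyme gene, at 0.30 (SE 0.19). Cytosolic ribosomal protein genes gave 10 above (7.19%) and 25 below (18.0%) of 139, with a median of -0.04. It ran from -0.08, without Rvb1 replicate 1, to 0.02, without Rvb2 replicate 1. Their gene bodies gave 21 above and 21 below (15.1% each), against 12% and 12.4% of all gene bodies. RPL43B had 110 and 114 CPM in Rvb1 and 143 and 136 CPM in Rvb2, a difference of -0.31 (SE 0.14), while RPS20 had 158 and 141 CPM in Rvb1 and 131 and 117 CPM in Rvb2, a difference of 0.28 (SE 0.14). The median over storage carbohydrate promoters was 0.07 with all libraries, -0.05 without Rvb1 replicate 1 and -0.10 without Rvb2 replicate 2. Meiosis promoters gave 1 above (4.55%) and 4 below (18.2%) of 22 with a median of -0.20, which was 0.05 without Rvb1 replicate 1.

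Promoter windows of tRNA genes were the group with the largest share of members below. Both Rvb1 libraries lay below both Rvb2 libraries at 93 of 274 tRNA promoters, 33.9%, against 11.5% of all promoters, and above at 14. The median difference was -0.17, and it ran from -0.30 without Rvb1 replicate 2 to -0.06 without Rvb1 replicate 1. Median levels over input were -0.25 and -0.12 in Rvb1 and -0.10 and -0.01 in Rvb2. The gene body windows of the same genes gave 19 above (6.93%) and 21 below (7.66%), against 12% and 12.4% of all gene bodies. Their median difference was 0.06, and it was -0.06 without Rvb1 replicate 1 and -0.05 without Rvb2 replicate 2. None of the 274 tRNA promoters passed the adjusted test of the unpaired fit. At an unadjusted edgeR p under 0.05, 14 of them were lower, against 79 of 7028 over all promoters (1.12%).

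Subtelomeric promoters, those of the outermost 10 listed genes of each arm, gave 29 above and 64 below of 313, with a median of -0.13 that ran from -0.26 to -0.03 when 1 library was left out. These were 9.27% above and 20.4% below, against 11.9% and 11.5% of all promoters. Their gene bodies gave 13 above (4.14%) and 65 below (20.7%) of 314, against 12% and 12.4% of all gene bodies. Promoters with a divergent neighbour gave 417 above (13.6%) and 271 below (8.87%) of 3056, with a median of 0.05, and 0.00 without Rvb1 replicate 1. Divergent neighbours can share a window, as SWR1 and RQC1 do, so these promoters are not all separate windows. Many subtelomeric and tRNA genes have near-identical copies, and the placement of reads with several matches is not given in the sources used, so values of single members are uncertain.

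**Figure D5:**
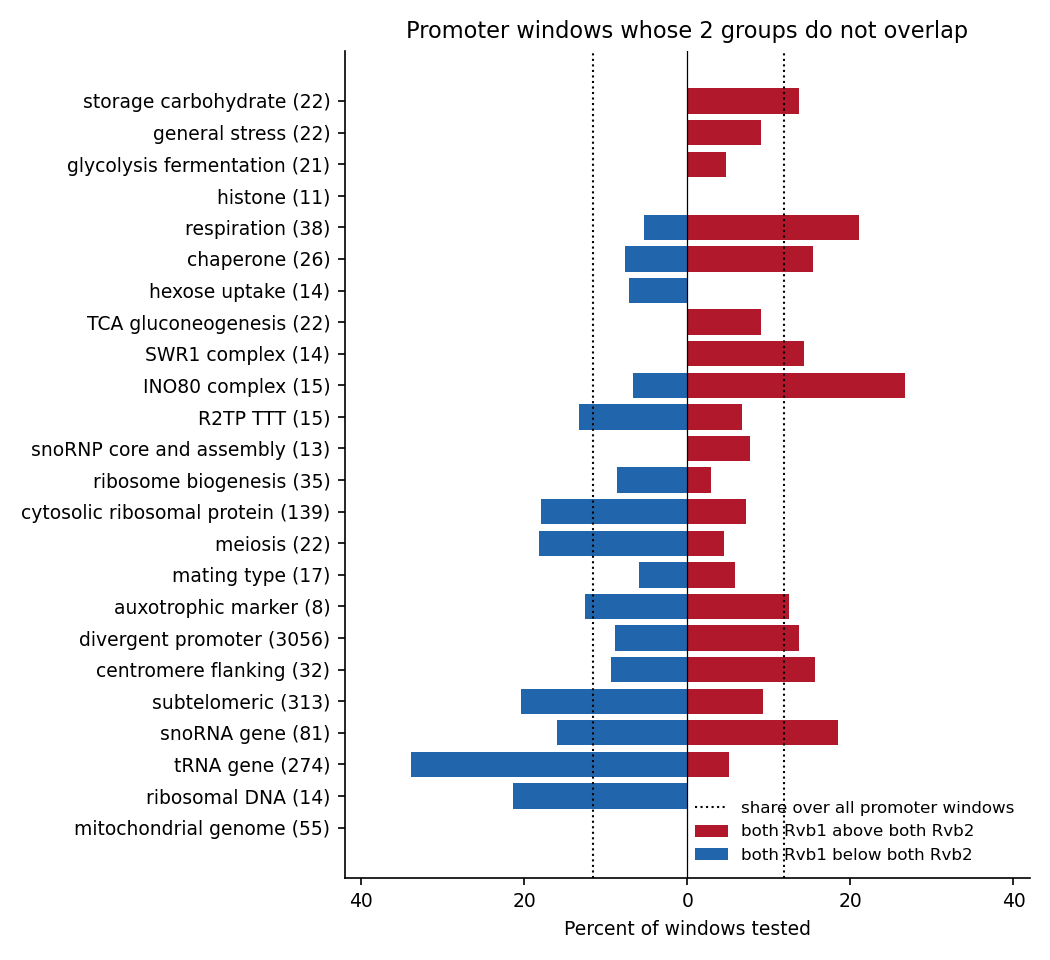
Bars give the percent of each group's promoter windows, with the number tested in brackets, at which both Rvb1 libraries lie above both Rvb2 libraries (right) or below them (left); dotted lines mark 11.9% and 11.5%, the shares over all promoter windows. The tRNA bar reaches 33.9% on the left.

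Windows of the mitochondrial genome followed the replicate number. Their median promoter level over input was -0.63 and 0.65 in Rvb1 and 0.02 and 0.83 in Rvb2, so the second library of each protein was the higher one. They took 0.686% and 1.63% of promoter reads in Rvb1 and 1.05% and 1.83% in Rvb2, against 1.03% in the Rvb1 input and 1.05% in the Rvb2 input. All 55 had a difference below 0, with a median of -0.33, and in 0 of them did the groups separate. The median was -1.08 without Rvb1 replicate 2 and 0.19 without Rvb1 replicate 1. Ribosomal DNA promoters stood at a median of 1.12 and 1.76 in Rvb1, against 1.85 and 1.44 in Rvb2, and most of these windows are at the count limit.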

How the data were processed

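The authors deposited raw read counts per feature for 500 bp promoter windows and 500 bp gene body windows; per the labels' protocols, libraries were read on a NextSeq 500 with 75 cycles. The submitters' processing notes name FastQC, Bowtie2, SAMtools, Picard, deepTools and bedtools, with no version or role. Not given in the sources used here: genome build, window placement, and how duplicates and multiply mapping reads were treated. The counts were tested with edgeR 4.0.16 (R 4.3.3): filterByExpr, TMM, glmQLFit and glmQLFTest on the 4 pulldowns, adjusted over all windows of a table; DESeq2 1.42.0 was an alternative. The interaction used both windows of a library with 1 library size. Fits were tested on simulated data. Levels over input used a prior count of 2. Of 7036 identifiers, 6081 matched the R64 reference table by name. Named windows needed a mean count of at least 50 and groups that did not overlap, and were the 8 (promoter), 5 (gene body) or 4 (interaction) with the smallest p in each direction, plus a fixed set, the highest and lowest promoters, and 2 members per list. The members and lists were chosen with earlier results of these data known. Pgk1 libraries were not used.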

Additional observations from a re-analysis of the deposited data

How the results depend on the processing

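Counts of calls stayed at 0 for promoters and gene bodies under other scalings and filters, DESeq2, a 1.5-fold threshold, added inputs, own inputs and the ceiling correction, and at promoters also without divergent neighbours. Leaving out 1 library gave 0 to 11 promoter, 0 to 12 gene body and 0 to 41 interaction calls; the highest counts came without Rvb1 replicate 2, where the lone Rvb1 library is assumed to vary like the Rvb2 ones, and the cause was not tested. The labels give both proteins replicates 1 and 2 but do not pair them. With the number as a replicate block there were 146 calls among 7028 promoters (61 higher, 85 lower). Gene bodies gave 174 calls among 7030 (136 higher, 38 lower), and the interaction gave 1 call. With the block, 91.5% of gene bodies had an interval within 1.5-fold. Same-numbered libraries deviated together with a correlation of 0.73 at promoters and 0.70 in gene bodies, over only 2 pairs. Of the block's promoter calls, 16 were among the 274 tRNA windows and 18 among the 55 mitochondrial windows, all lower in Rvb1. Over all 7028 promoters, 85 were called lower. The block's gene body calls held 2 tRNA windows, both higher in Rvb1, and 0 mitochondrial windows. Of the 54 named windows, 26 passed with the block. Many of the 54 had been chosen for a small p in these same counts, so this count is not independent of that choice. The share of reads in promoters was higher in Rvb1 in both pairs, with p = 0.5 in an exact sign test, the smallest p that 2 pairs allow. The spread covariate, added after seeing the data, called 1 gene body, ILV5. Intervals within 1.5-fold covered 32.3% to 41.7% of promoters and 22.4% to 48.4% of gene bodies when 1 library was left out. The difference in promoter share ran from -0.183 to 3.23 points.

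Without 1 library, the log2 difference at promoters ran from -0.086 to 0.30 for GSY1, -0.11 to 0.13 for GLC3, -0.13 to 0.42 for GPH1, -0.047 to 0.20 for HXK1, -0.18 to 0.23 for HSP30, -0.23 to 0.059 for HSP12, -0.072 to 0.26 for HSP104, -0.011 to 0.14 for RVB1, -0.12 to 0.27 for INO80 and -0.33 to 0.69 for SWR1 and RQC1. At gene bodies it ran from -0.093 to 0.012 for RVB1 and -0.070 to 0.85 for SWR1. Relative to own input it was -0.011 for GLC3, -0.036 for HXK1, -0.028 for RVB1, -0.050 for SWR1 and RQC1, and 0.081 for the RVB1 gene body. With 2 libraries a protein, the 95% interval of a promoter's difference reached a median of 0.37 log2 units either way in the main fit.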
